A study of Homo sapiens with 8 samples.

Results

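The interferon regulatory factors (IRFs) are transcription factors that share a DNA-binding domain for GAAA-containing elements in interferon and interferon-stimulated genes. The 8 genes IRF1, IRF2, IRF3, IRF4, IRF5, IRF7, IRF8 and IRF9 were taken by symbol from a table of 60664 genes, with every library used. All 8 were among the 14899 genes that reached 1 FPKM (fragments per kilobase of gene, scaled to the library's reads) in at least 2 of the 8 libraries and were tested. The genes were taken as a family by symbol and not by a threshold on their values, although earlier results of these data were known.

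RNA-seq was made from THP-1, a human monocytic leukemia cell line, and from decitabine-resistant THP-1 cells. Decitabine (DAC) is a cytidine analog that traps and depletes DNA methyltransferases. The 4 groups were parental cells with DMSO, parental cells with 1 µM DAC, DAC-resistant cells with DMSO and DAC-resistant cells with 1 µM DAC, each with 2 libraries, and every group was collected after 6 days; the genotype was labelled WT in all of them. Resistant cells had been derived from the parental line by repeated DAC exposure and then kept without the drug, so they stand for 1 derived population of 1 cell line and not for resistance in general. Replicates were labelled as biological, but separate cultures were not described, so p-values measure only the spread between these libraries.

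In the resting cell IRF3 is present but inactive, and kinases of the TBK1 and IKK family phosphorylate it after nucleic acid sensing, upon which it enters the nucleus and switches on interferon beta. Secreted interferon then assembles ISGF3, the complex that contains IRF9 and STAT2, whose target genes include IRF7, which broadens the interferon response. IRF1 activates and IRF2 mostly represses overlapping elements, IRF5 acts below Toll-like receptors, and IRF4 and IRF8 are the blood-lineage members that bind DNA with PU.1 or BATF, with IRF8 guiding monocyte differentiation.

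Recovered reads on genes numbered 27468582 to 31903855 per library, and the libraries of a group correlated with a Pearson r of 0.985 to 0.9897 across genes, which are not independent replicates. Of 10 monocytic markers, 8 to 10 had a mean of at least 1 FPKM in each group, with summed levels of 261 to 266 FPKM in DMSO-treated parental cells, 382 to 391 with DAC, 194 to 208 in resistant cells with DMSO and 205 to 211 with DAC. With DAC in parental cells 3 of the 10 were called higher (a limma p up to 0.01 with a log2 change of 1 or more in size) and none lower, where 6.66% and 2.64% of all genes were. These were CD14 (log2 fold change 3.05), LYZ (1.91) and MPO (1.42). In resistant cells with DMSO 3 were called lower than in parental cells and none higher, where 4.28% and 4.45% of all genes were. These were ITGAM (-1.40), LYZ (-1.31) and CD33 (-1.03). The T and NK cell list of 8 genes summed to 156 to 169, 138 to 143, 124 to 126 and 115 to 119 FPKM in the same order, mostly from CD4, which monocytes also express, while CD3D, CD3E and CD3G had means under 1 FPKM and NKG7, a cytotoxic granule gene, was called higher with DAC in parental cells (5.67 to 16.7 FPKM on average, log2 fold change 1.41). The dendritic list of 8 summed to 15.3 to 18.4, 13.1 to 13.3, 27.2 to 29 and 27.7 to 28.3 FPKM, mostly from FLT3 and BATF3, with CLEC9A at 0 in all libraries. FLT3, a receptor of progenitors and dendritic cells, was called higher in resistant cells with DMSO (1.09), while BATF3, the other tested gene of the list, had -0.90 (adjusted p = 0.00045) and was not called. Against the sum, the untested CD1C and CLEC10A went from 0 FPKM in DMSO-treated parental cells to means of 0.842 and 1.05 with DAC. The epithelial and erythroid list of 6 summed to at most 1.92 FPKM, with HBG1 at 0 in all libraries, and the keratin KRT8, which passed the filter only through parental cells with DAC, averaged 0.117 FPKM in DMSO-treated parental cells and 1.26 there. The B and plasma cell list, which has 12 genes, summed to 9.81 to 9.98, 21.2 to 23, 11.5 to 12.2 and 11.4 to 11.6 FPKM, and the part of marker shifts in the IRF levels was not tested. In bulk RNA, fewer cells of a type and less RNA per cell cannot be told apart.

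A gene was called when its limma p was at most 0.01 and its log2 fold change of FPKM + 1 at least 1 in size, and p-values were adjusted by the Benjamini-Hochberg method across the 14899 genes. With DAC in parental cells, 2 of the 8 genes were called higher, IRF7 and IRF9, and none lower, where 6.66% of all tested genes were called higher and 2.64% lower. All 8 had an adjusted p under 0.05, 6 higher and 2 lower (IRF4 only with the filter), beside 57.7% of all genes, so that an adjusted p of this size was common in the whole table. The median log2 fold change of the 8 genes was 0.38, and that of all genes 0.06. With DAC in resistant cells none of the 8 was called in either direction, where 0.114% of all genes were called higher and 0.121% lower, and 2 had an adjusted p under 0.05 (IRF1 higher and IRF7 lower), beside 11.2% of all genes. IRF9 passed the filter only through parental cells with DAC, and IRF4 only through resistant cells, so that these 2 had to differ to be tested, as had some list genes that were low in all other groups. For IRF9 and IRF4 the adjusted p-values below are therefore those of a fit of every gene above 0 FPKM, with no filter, in which 2, 0, 2, 3 and 2 members were called in the 5 comparisons, as many as with the filter. The smallest two-sided p of an exact permutation test of 2 libraries against 2 is 0.333, so the single-gene statements rest on the fit across all genes.

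**Figure D1:**
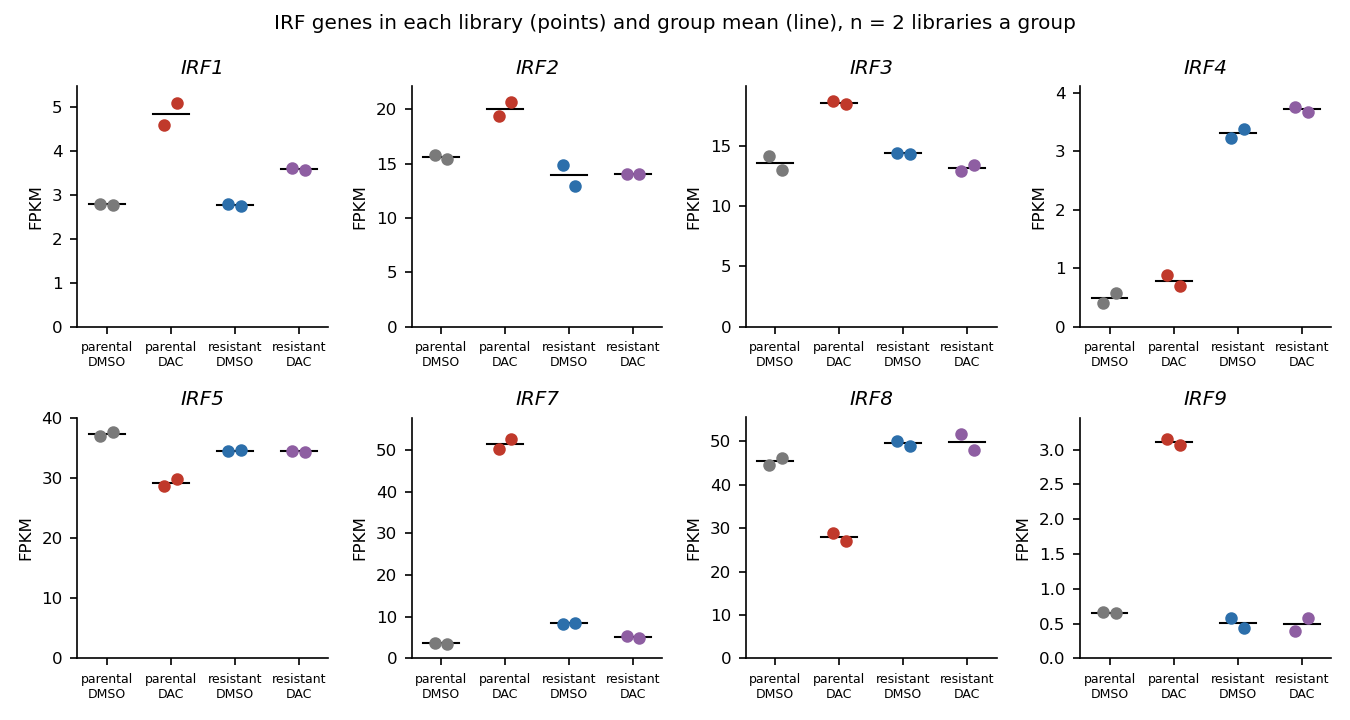
FPKM of each IRF gene in every library (points) with the group mean (line), 2 libraries a group, on axes that start at 0. IRF7 and IRF9 are highest in both parental libraries with DAC, IRF4 in the 4 resistant libraries, and IRF5 and IRF8 are lowest in parental cells with DAC.

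IRF7 (ENSG00000185507, chr11:612553-615983, minus strand, GENCODE v44 on GRCh38), the interferon-induced member that widens interferon production, showed the widest range of the family. It measured 3.74 and 3.43 FPKM in DMSO-treated parental cells, 50.4 and 52.6 with DAC, 8.33 and 8.51 in resistant cells with DMSO, and 5.36 and 4.76 in resistant cells with DAC. No 2 groups overlapped, and the order ran from parental DMSO through resistant DAC and resistant DMSO to parental DAC. DAC raised IRF7 14.3-fold by mean FPKM in parental cells (log2 fold change 3.52, 95% CI 3.37 to 3.66, adjusted p = 1.4e-07). In resistant cells both DAC libraries lay below both DMSO libraries, at 60.1% of their mean (log2 fold change -0.64, 95% CI -0.78 to -0.49, adjusted p = 0.0026), which is short of the fold needed for a call. The DAC effect in resistant cells was smaller than that in parental cells by a log2 difference of -4.15 (95% CI -4.36 to -3.95, adjusted p = 7.3e-07).

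Resistant cells started from a higher IRF7 level. With DMSO it was 2.35-fold that of parental cells by mean FPKM (log2 fold change 1.04, 95% CI 0.89 to 1.19, adjusted p = 2.1e-05). This value lies close to the fold threshold and fell under it, at 0.96 to 0.99, with upper-quartile scaling, with quantile normalization and without the second parental DMSO library, while the adjusted p stayed at 0.0012 or lower in all 17 alternatives. With DAC in both lines the direction turned, and resistant cells held 9.83% of the parental mean (log2 fold change -3.12, adjusted p = 1.5e-07). The adjacent gene PHRF1, whose end is 331 bases away, had log2 fold changes of 0.38 for DAC in parental cells and 0.31 for resistant against parental cells with DMSO, and was not called.

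IRF9 (ENSG00000213928, chr14:24161234-24168043, plus strand), the DNA-binding subunit of ISGF3, reached 1 FPKM only in parental cells with DAC. It measured 0.660 and 0.654 FPKM in DMSO-treated parental cells and 3.16 and 3.07 with DAC, from 75 and 71 reads against 311 and 302. In resistant cells the values were 0.584 and 0.436 with DMSO and 0.394 and 0.583 with DAC, from 45 to 66 reads. Both parental DAC libraries were above all 6 others, and the 2 resistant groups overlapped. With DAC, parental cells held 4.74-fold the DMSO mean. In the fit with no filter the log2 fold change of FPKM + 1 was 1.31 in parental cells (adjusted p = 0.00052) and -0.02 in resistant cells (adjusted p = 1), and the 2 DAC effects differed by -1.33 (adjusted p = 0.0025).

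Unlike IRF7, IRF9 was not called higher in resistant cells with DMSO, where its log2 fold change against parental cells was -0.14 (adjusted p = 0.47 with no filter). With DAC in both lines resistant cells held 15.7% of the parental mean (log2 fold change -1.47, adjusted p = 0.00023 with no filter). Its level is uncertain, because 93.1% of the bases of its MANE Select transcript (the reference transcript shared by RefSeq and Ensembl) also lie in exons of another gene on the same strand, ENSG00000259529, and reads in shared exons may have been left out by the counting. That gene had 1 to 17 reads in every library, 13 to 17 of them in parental cells with DAC. The pseudocount also compresses a gene this low, and over the alternatives the parental DAC effect lay between 1.22 and 2.24.

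The promoter table of RefSeq (GRCh38.p14, 250 bases before to 50 after a start site) held 9 windows of 5 members, 1 each of IRF1, IRF4 and IRF9, 4 of IRF5 and 2 of IRF8. Each was searched on both strands for 3 motifs: the core of the interferon-stimulated response element, written as GAAA, any 2 bases and GAAA, the gamma-activated site, TTCNNNGAA, and the ETS-IRF composite element bound by PU.1 with IRF4 or IRF8, written as GGAA, any 2 bases and GAAA. The response element core and the composite differ in 1 letter, so that no run can match both on 1 strand, and the gamma-activated site reads the same on both strands and was counted once. The response element core was in none of the 9 windows and in 3.57% of all 35116 windows in the table. TTCNNNGAA was in the IRF1 and IRF9 windows and in 7.66% of all windows. The composite was in 1 of the 4 IRF5 windows and in 2.82% of all windows. A match is a description of the letters and not a binding site.

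The windows of IRF9 (chr14:24161015-24161314, plus strand) and IRF1 (chr5:132490724-132491023, minus strand) are shown because both genes had higher values with DAC in parental cells and both windows held the gamma-activated site, in capitals, 63 and 124 bases before the start site.
IRF9: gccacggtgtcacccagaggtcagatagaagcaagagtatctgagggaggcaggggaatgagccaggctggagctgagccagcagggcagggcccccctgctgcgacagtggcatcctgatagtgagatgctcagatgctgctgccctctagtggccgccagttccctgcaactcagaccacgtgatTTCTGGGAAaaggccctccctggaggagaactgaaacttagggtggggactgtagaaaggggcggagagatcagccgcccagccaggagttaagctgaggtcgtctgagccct
IRF1: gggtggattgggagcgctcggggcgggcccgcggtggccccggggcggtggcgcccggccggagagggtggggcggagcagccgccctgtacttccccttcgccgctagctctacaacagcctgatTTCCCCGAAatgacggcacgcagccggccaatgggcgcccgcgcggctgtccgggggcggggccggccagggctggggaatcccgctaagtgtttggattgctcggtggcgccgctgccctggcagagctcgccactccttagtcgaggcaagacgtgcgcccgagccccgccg
The IRF9 window had 7 CpG dinucleotides and the IRF1 window 36, where the median window had 14. DNA methylation, the target of DAC, was not measured in these libraries.

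STAT2, the partner that holds IRF9 in ISGF3, was called higher with DAC in parental cells. It measured 19.9 FPKM in both DMSO libraries and 50.9 to 54.4 with DAC (log2 fold change 1.36, adjusted p = 9.3e-07). In resistant cells it measured 27 FPKM in both DMSO libraries and 24.6 to 25.7 with DAC, and was not called (log2 fold change -0.10, adjusted p = 0.17). With DMSO, resistant cells had a log2 fold change of 0.42 against parental cells (adjusted p = 0.00015), under the threshold for a call.

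All 20 genes of a list of ISGF3 targets were called higher with DAC in parental cells, where 6.66% of all genes were, with a median log2 fold change of 3.50. None was called in either direction in resistant cells, where 0.114% of all genes were called higher and 0.121% lower, with a median of -0.45. These 20 include MX1, which passed the filter only through parental cells with DAC. The largest fold change in parental cells was that of IFI27, from 0.304 to 0.382 FPKM with DMSO to 184 to 196 with DAC (log2 fold change 7.15, adjusted p = 2.8e-08). IFI44, ISG15 and IFI44L followed at 5.87, 5.42 and 5.28. In resistant cells with DMSO 14 of the 20 were called higher than in parental cells and none lower, where 4.45% and 4.28% of all genes were, with a median of 1.56 against 0.02 for all genes, and the 4 largest were HERC5 (3.70), IFIT2 (3.49), IFI44 (3.29) and IFIT1 (3.26). HERC5, the ligase that attaches the ubiquitin-like protein ISG15, measured 18.5 to 18.7 FPKM in resistant cells with DMSO, above the 12.4 to 14.9 of parental cells with DAC.

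The other 6, MX1, MX2, OAS1, IFI35, RSAD2 and XAF1, were not called in that comparison and are named after their values were seen. MX2, OAS1 and IFI35 still had positive log2 fold changes there, of 0.93, 0.64 and 0.32 (limma adjusted p = 4.3e-05, 0.00012 and 0.04). RSAD2 and XAF1 each had 0.03, and MX1 had -0.20. MX1, an antiviral GTPase, was at 0.279 to 0.286 FPKM in DMSO-treated parental cells, at 22.5 to 22.6 with DAC, and at 0.115 to 0.126 in resistant cells with DMSO. Between the lines with DAC, 17 of the 20 were called lower in resistant cells, where 9.17% of all genes were, and all 20 had a called lower DAC effect there, where 7.16% of all genes had; MX1, tested only through the group where it was high, is in both counts.

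**Figure D2:**
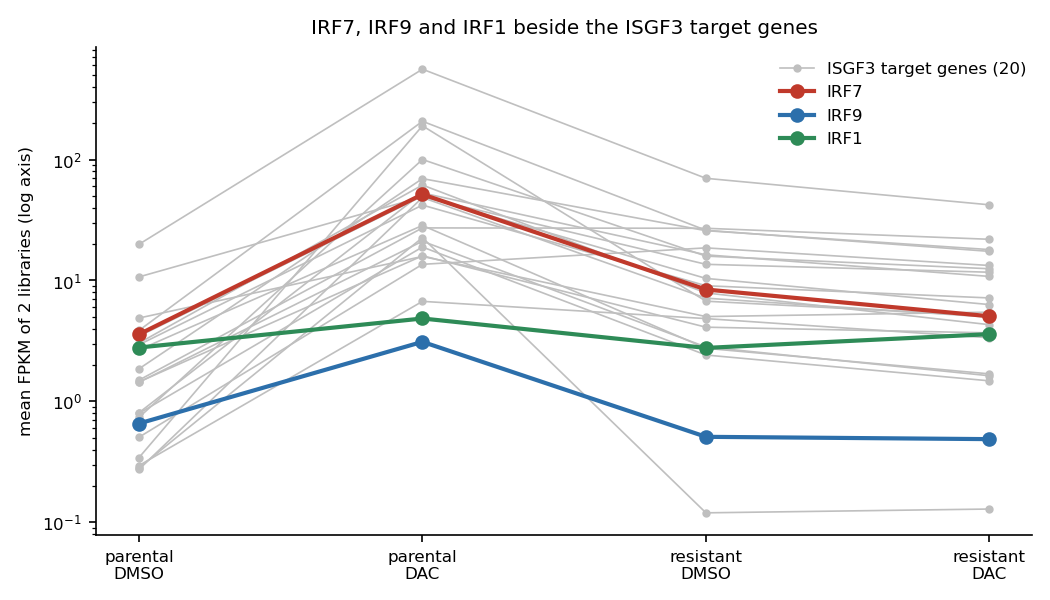
Mean FPKM of 2 libraries in each group, on a log axis, for IRF7, IRF9 and IRF1 beside the 20 ISGF3 target genes in grey; lines join the values of 1 gene and mark no order of the groups. IRF7 peaks at 51.5 in parental cells with DAC and lies between its parental DMSO and parental DAC levels in both resistant groups, while IRF9 is at 0.51 and 0.488 there.

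Of 20 type I and III interferon genes, the products of IRF3 and IRF7 activity, IFNB1 was the only one that passed the filter. Interferon beta RNA was at 0 to 0.0393 FPKM in DMSO-treated parental cells, 0.303 to 0.52 with DAC, 1.74 to 2.02 in resistant cells with DMSO and 1.9 to 2.33 with DAC. Both resistant groups were thus above parental cells with DAC, although IRF7 was lower in them. These values come from 0 to 1, 7 to 12, 46 to 51 and 51 to 60 reads per library. IFNB1 passed the filter only through the resistant libraries, where it was high, so no test is given for it. Of the other 19, 13 were listed at 0 in all libraries, and the highest single value was 0.376 FPKM, for IFNL1 in parental cells with DAC.

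IRF3 (ENSG00000126456, chr19:49659569-49665875, minus strand), the latent factor that is activated by phosphorylation, had a narrow range. It measured 14.2 and 13.0 FPKM in DMSO-treated parental cells, 18.7 and 18.4 with DAC, 14.4 and 14.4 in resistant cells with DMSO, and 12.9 and 13.4 with DAC. Both parental DAC libraries were above the 6 others. The log2 effect of DAC was 0.42 in parental cells (95% CI 0.31 to 0.54, adjusted p = 0.00031) and -0.12 in resistant cells (95% CI -0.23 to -0.01, adjusted p = 0.15), and the difference was -0.55 (adjusted p = 0.00068). Part of the IRF3 transcript, 14.2% of its MANE Select bases, overlaps BCL2L12 on the opposite strand, which measured 5.42 to 5.48 FPKM in DMSO-treated parental cells and 11.5 to 12.4 in resistant cells with DMSO. The strand setting of the counting was not stated, and the part of such reads in IRF3 was not tested. Between the lines with DMSO, the log2 fold change of IRF3 was 0.08 (95% CI -0.03 to 0.19, adjusted p = 0.19).

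Among 16 adaptors and kinases that activate IRF3, IRF5 and IRF7, 2 were called higher and none lower with DAC in parental cells, where 6.66% and 2.64% of all genes were, so that the list is described and not set apart. MYD88, the adaptor below Toll-like receptors, went from 7.96 to 8.05 FPKM to 27.2 to 27.8 (log2 fold change 1.66, adjusted p = 1.3e-06). IKBKE, an IRF3 and IRF7 kinase, went from 8.83 to 9.97 FPKM to 21.4 to 23.3 (1.17, adjusted p = 1.5e-05). Its relative TBK1 was not called, at 0.50, and none of the 16 was called with DAC in resistant cells, where few genes of any kind were. STING1, the adaptor of the cytosolic DNA sensor cGAS, was the only one called between the lines with DMSO, where 4.45% of all genes were called higher and 4.28% lower, and it was lower in resistant cells (25.1 to 25.3 FPKM against 56.1 to 56.9, log2 fold change -1.14, adjusted p = 6.1e-07).

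IRF1 (ENSG00000125347, chr5:132440440-132508719, minus strand), the activator induced by interferon gamma, was the only member with an adjusted p under 0.05 in the same direction for DAC in both lines. It measured 2.79 and 2.78 FPKM in DMSO-treated parental cells, 4.60 and 5.10 with DAC, 2.79 and 2.74 in resistant cells with DMSO, and 3.62 and 3.57 with DAC. DAC libraries were above DMSO libraries in each line, and the DMSO groups of the 2 lines overlapped. The log2 fold change was 0.63 in parental cells (95% CI 0.48 to 0.78, adjusted p = 0.00021) and 0.29 in resistant cells (95% CI 0.14 to 0.44, adjusted p = 0.035), with a difference of -0.34 (95% CI -0.55 to -0.13, adjusted p = 0.018). The resistant value had an adjusted p under 0.05 in 7 of 16 alternatives, and the difference in 10 of 15. Opposite-strand genes, chiefly the antisense gene IRF1-AS1, cover 16.3% of the MANE Select bases of IRF1. IRF1-AS1 measured 0.488 to 0.613 FPKM in DMSO-treated parental cells, 1 to 1.2 with DAC, 0.482 to 0.547 in resistant cells with DMSO and 0.527 to 0.718 with DAC.

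IRF2 (ENSG00000168310, chr4:184385702-184474558, minus strand), which competes with IRF1 for its elements, measured 15.8 and 15.5 FPKM in DMSO-treated parental cells, 19.3 and 20.7 with DAC, 14.9 and 13.0 in resistant cells with DMSO and 14.0 in both resistant DAC libraries. The parental DAC libraries were the highest, and the 2 resistant groups overlapped. The log2 effect of DAC was 0.34 in parental cells (95% CI 0.18 to 0.49, adjusted p = 0.0042) and 0.01 in resistant cells (95% CI -0.14 to 0.17, adjusted p = 0.94). The effects differed by -0.32 (95% CI -0.54 to -0.11, adjusted p = 0.025), with an adjusted p under 0.05 in 7 of 16 alternatives. Per MANE Select length the ratio of IRF1 to IRF2 was 0.447 and 0.456 in DMSO-treated parental cells, 0.603 and 0.625 with DAC, 0.477 and 0.535 in resistant cells with DMSO and 0.656 and 0.646 with DAC. The balance thus stood further to IRF1 in all 4 DAC libraries than in all 4 DMSO libraries.

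Of 15 genes associated with IRF1, 12 were tested, of which 5 were called higher and none lower with DAC in parental cells, where 6.66% and 2.64% of all genes were, and none in resistant cells, where 0.114% and 0.121% were. GBP1, an interferon-induced GTPase that passed the filter only through parental cells with DAC, measured 0.0493 FPKM on average with DMSO and 5 with DAC there, and is given as a description. Next by size were TNFSF10, the death ligand TRAIL (log2 fold change 2.29), TAP1, the peptide transporter (2.23), and GBP2 (1.70). TAP1 was also called higher in resistant cells with DMSO, at 17.6 to 18 FPKM against 7.63 to 8.12 (1.08, adjusted p = 1.6e-05), a comparison in which IRF1 itself had a log2 fold change of -0.01 (95% CI -0.16 to 0.14, adjusted p = 0.93).

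IRF5 (ENSG00000128604, chr7:128937457-128950038, plus strand), the Toll-like receptor effector of myeloid cells, and IRF8 were the 2 members that were lower with DAC in parental cells. IRF5 measured 37.0 and 37.8 FPKM in DMSO-treated parental cells, 28.7 and 29.8 with DAC, 34.5 and 34.7 in resistant cells with DMSO, and 34.6 and 34.4 with DAC. The parental DAC libraries were the lowest, and the 2 resistant groups overlapped. The log2 effect of DAC was -0.34 in parental cells (95% CI -0.41 to -0.28, adjusted p = 9.7e-05) and -0.00 in resistant cells (95% CI -0.07 to 0.07, adjusted p = 0.97), and the effects differed by 0.34 (95% CI 0.24 to 0.44, adjusted p = 0.00069). One IRF5 window, chr7:128940420-128940719 on the plus strand, held the ETS-IRF composite, in capitals as the reverse complement, 33 bases before its start site.
IRF5: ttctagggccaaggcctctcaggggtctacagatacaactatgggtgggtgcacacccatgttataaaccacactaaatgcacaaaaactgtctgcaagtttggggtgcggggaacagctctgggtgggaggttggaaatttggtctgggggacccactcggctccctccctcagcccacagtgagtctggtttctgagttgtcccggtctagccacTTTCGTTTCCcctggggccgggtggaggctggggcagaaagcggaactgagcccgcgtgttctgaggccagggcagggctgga

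IRF8 (ENSG00000140968, chr16:85899116-85922606, plus strand), the monocyte and dendritic cell factor, was the most abundant member in 3 of the 4 groups. It measured 44.5 and 46.2 FPKM in DMSO-treated parental cells, 28.8 and 26.9 with DAC, 50.1 and 49.0 in resistant cells with DMSO, and 51.6 and 48.0 with DAC. Both parental DAC libraries were below the 6 others, at 61.4% of the parental DMSO mean (log2 fold change -0.68, 95% CI -0.80 to -0.57, adjusted p = 4e-05), short of the fold for a call. In resistant cells the log2 fold change with DAC was 0.01 (95% CI -0.11 to 0.12, adjusted p = 0.96), and the effects differed by 0.69 (95% CI 0.53 to 0.85, adjusted p = 0.00027). IRF8 was thus lowest in the 2 libraries in which IRF7 and IRF9 were highest.

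Of 10 myeloid genes associated with IRF8 and PU.1, 8 were tested, and 1 was called higher and none lower with DAC in parental cells, where 6.66% and 2.64% of all genes were, so that this list too is not set apart. The called gene was CYBB, a subunit of the phagocyte oxidase, at 11.6 to 11.9 FPKM with DMSO and 65.9 to 68.2 with DAC (log2 fold change 2.42, adjusted p = 2.6e-07), in the libraries in which IRF8 was lowest. PU.1 itself (SPI1) was not called, with 102 FPKM in both parental DMSO libraries, 125 to 129 with DAC, 67.4 to 72.4 in resistant cells with DMSO and 72.8 to 76.1 with DAC. TLR4, the lipopolysaccharide receptor, passed the filter only through parental cells and is given as a description. It measured 0.341 to 0.474 FPKM in resistant cells with DMSO and 2.4 to 2.61 in parental cells with DMSO.

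Of 13 partners and cofactors of the family, 4 were called higher and 1 lower with DAC in parental cells, where 6.66% and 2.64% of all genes were. They include STAT2 and 2 genes that passed the filter only through parental cells with DAC and are given as a description. SPIB, the lymphoid relative of PU.1, measured 0.79 FPKM on average with DMSO and 3.45 with DAC in parental cells, and BATF2, a BATF protein that pairs with IRF factors, 0.843 and 3.71. BATF3, the partner of IRF8 in dendritic cells, fell from 4.63 to 5.76 FPKM to 1.87 to 2.2 (log2 fold change -1.03, adjusted p = 0.00025), and so had its lowest values in the same libraries as IRF8. The 2 genes did not move together between the lines. In resistant cells with DMSO BATF3 measured only 2.27 to 2.34 FPKM, while IRF8 averaged 49.6 there and 45.4 in parental cells with DMSO. Of 12 brakes on IRFs and interferon signalling, 2 were called higher and none lower with DAC in parental cells, beside the same shares of all genes. These were USP18, which removes ISG15 and blocks the interferon receptor, and SOCS3, which inhibits JAK kinases (2.99 and 1.33, adjusted p = 8e-06 and 0.00021). Neither list had a call with DAC in resistant cells, where 0.114% of all genes were called higher and 0.121% lower.

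IRF4 (ENSG00000137265, chr6:391739-411443, plus strand), the lymphoid member that drives plasma cell differentiation, differed mainly between the 2 lines. It measured 0.402 and 0.572 FPKM in DMSO-treated parental cells, 0.891 and 0.693 with DAC, 3.23 and 3.39 in resistant cells with DMSO and 3.76 and 3.68 with DAC, from 75 and 102, 144 and 112, 600 and 599, and 705 and 663 reads. All 4 resistant libraries were above all 4 parental ones. With DMSO resistant cells held 6.8-fold the parental mean and with DAC 4.7-fold. In the fit with no filter these were log2 fold changes of FPKM + 1 of 1.54 (adjusted p = 0.00023) and 1.40 (adjusted p = 0.00018). Over the alternatives the first value lay between 1.45 and 2.78, since the pseudocount compresses low levels. The log2 effect of DAC was 0.27 in parental cells (adjusted p = 0.087 with no filter and 0.046 with it, and under 0.05 in 5 of 16 alternatives) and 0.13 in resistant cells (adjusted p = 0.72 with no filter). The difference between these effects was -0.14 (adjusted p = 0.52 with no filter).

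Plasma cell genes did not all move with IRF4. SDC1, the plasma cell surface proteoglycan, was called higher in resistant cells with DMSO (1.96 to 2.21 FPKM against 0.383 to 0.681, log2 fold change 1.01), but PRDM1, the plasma cell regulator, was not (0.36), and 1 of the 6 tested genes of the B and plasma cell list was called higher and 1 lower, where 4.45% and 4.28% of all genes were. With DAC in parental cells, SDC1 (1.06) and PRDM1 (1.72) were called higher and none of the 6 lower. Of all genes, 6.66% were called higher there and 2.64% lower. The IRF4 promoter window (chr6:391502-391801, plus strand) is shown because this gene sets the lines apart. It held none of the 3 motifs and 32 CpG dinucleotides, more than 81.1% of all windows.
IRF4: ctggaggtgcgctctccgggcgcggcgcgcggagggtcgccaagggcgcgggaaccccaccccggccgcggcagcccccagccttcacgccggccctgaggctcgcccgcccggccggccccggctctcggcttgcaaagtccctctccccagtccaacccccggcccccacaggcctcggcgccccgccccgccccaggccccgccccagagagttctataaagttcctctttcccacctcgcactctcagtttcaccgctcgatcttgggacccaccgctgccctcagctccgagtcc

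Some of the genes around IRF4 were also called higher in resistant cells. EXOC2, an exocyst subunit 73711 bases to its right, had 4.74 FPKM on average in parental and 10.9 in resistant cells with DMSO (log2 fold change 1.05, adjusted p = 6.2e-05) and was called, and DUSP22, a phosphatase 40384 bases to its left, was not (0.34, adjusted p = 0.0068). Within 5 Mb on each side, 8 of 25 other tested genes were called higher in resistant cells with DMSO and none lower, where 4.45% and 4.28% of all genes were, and 19 of the 25 were above 0, with a median of 0.77. With DAC in both lines 8 of the 25 were called higher and 3 lower, where 5.29% and 9.17% of all genes were. The median of the 25 was 0.71. The autosomes were then divided into stretches of 10 Mb, of which 244 had at least 20 tested genes, a description added after the values had been seen. Ranked by the median log2 fold change of resistant against parental cells with DMSO, the stretch from 10 to 20 Mb of chromosome 6 was at rank 1 (0.82), that from 0 to 10 Mb, which holds IRF4, at rank 2 (0.76) and that from 20 to 30 Mb at rank 3 (0.50), while the median stretch was at 0.01. The stretches from 30 to 40, 40 to 50 and 50 to 60 Mb had 0.44, 0.45 and 0.34, at ranks 8, 7 and 11. With DAC in both lines, the first 2 stretches again held ranks 2 and 1, at 0.71 and 0.79. For DAC in parental cells the same 2 stretches had medians of 0.02 and 0.07, at ranks 134 and 94. DNA copy number was not measured, and its part in the IRF4 difference between the lines was not tested.

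**Figure D3:**
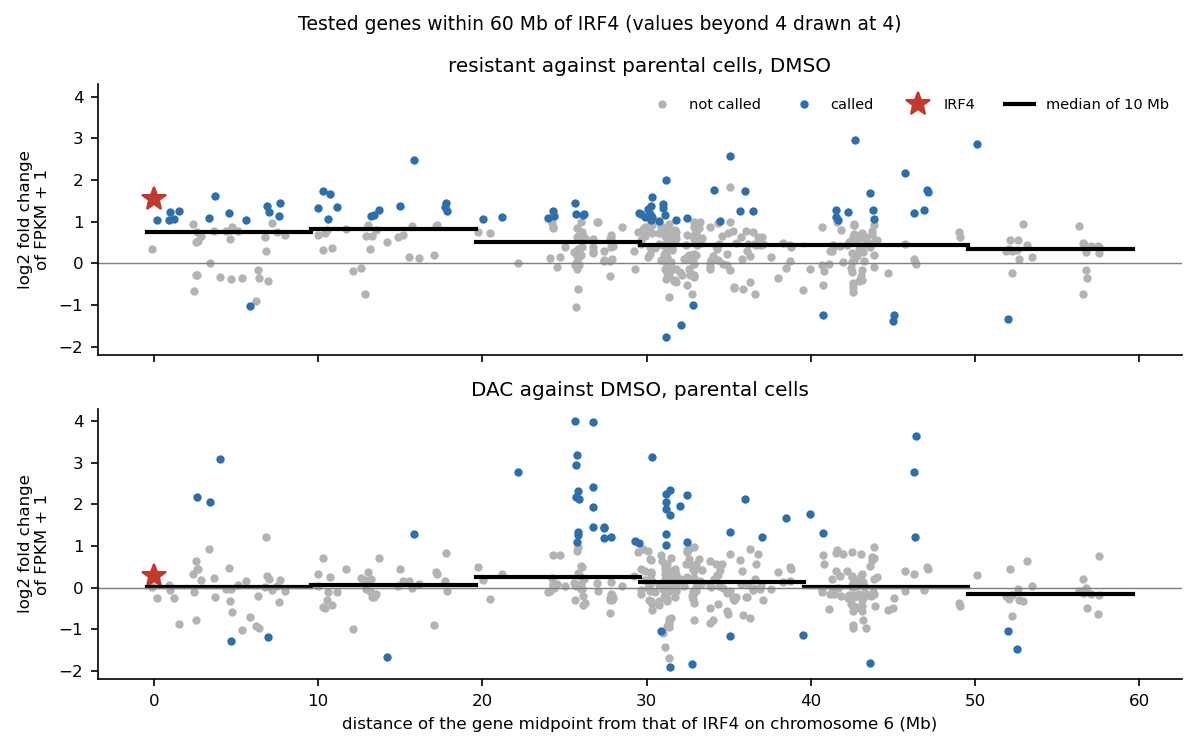
Log2 fold change of FPKM + 1 for each tested gene within 60 Mb of IRF4 (star) against the distance of its midpoint from that of IRF4, for resistant against parental cells with DMSO (top) and for DAC in parental cells (bottom), with called genes in blue and medians of 10 Mb as black lines. In the top panel the first 3 medians are 0.76, 0.82 and 0.50, and in the bottom panel 0.02, 0.07 and 0.25.

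Between the lines with DMSO, IRF4 and IRF7 were the 2 members called higher, where 4.45% of all genes were called higher, and none was called lower, where 4.28% were. IRF4, IRF5 and IRF7 had an adjusted p under 0.05, beside 57.5% of all genes, with IRF5 lower by -0.11 (95% CI -0.18 to -0.04, adjusted p = 0.016). Over 17 alternatives the IRF5 value ranged from -0.23 to -0.04, and its limma adjusted p was 0.37 with values rescaled to TPM. The intervals of IRF1, IRF3 and IRF9 included 0, while those of IRF2 (-0.31 to -0.01) and IRF8 (0.01 to 0.24) did not, with adjusted p-values of 0.072 and 0.059. With DAC in both lines, 1 member was called higher (IRF4) and 2 lower (IRF7 and IRF9), where 5.29% and 9.17% of all genes were. All 8 had an adjusted p under 0.05, beside 67% of all genes, with IRF4, IRF5 and IRF8 higher and the other 5 lower in resistant cells.

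In the test of the difference between the DAC effects, resistant minus parental, 2 members were called lower (IRF7 and IRF9), where 7.16% of all genes were, and none higher, where 3.46% were. An adjusted p under 0.05 was reached by 7 members, IRF4 being the exception, beside 49.3% of all genes. In the 5 with a negative difference the parental effect was positive, and in IRF5 and IRF8 it was negative, so that in each of the 7 the estimated effect was smaller in size in resistant cells. The comparisons share libraries: DMSO-treated parental cells enter both the parental DAC effect and the comparison of the lines with DMSO, and all 4 groups enter the difference.

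**Figure D4:**
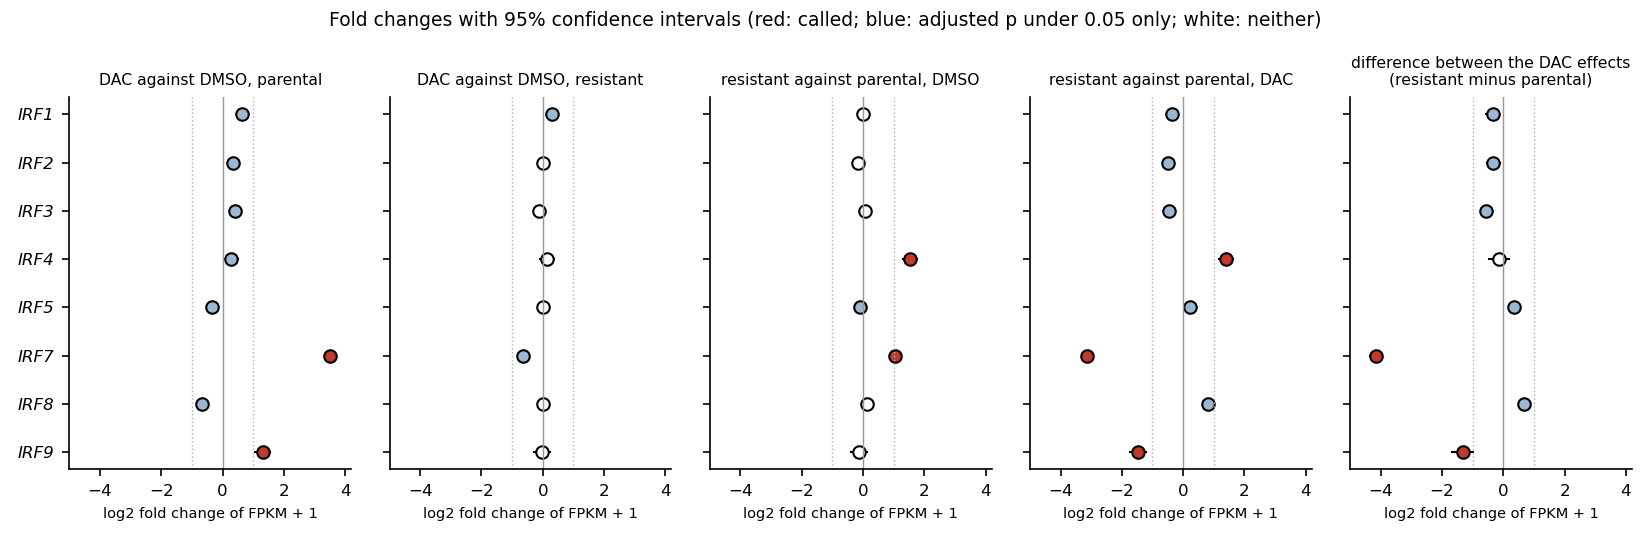
Log2 fold change of FPKM + 1 (points) with its 95% confidence interval (lines) for the 8 genes in 5 comparisons; red points were called, blue ones had only an adjusted p under 0.05, and dotted lines mark a log2 fold change of 1 in size. IRF7 stands at 3.52, -0.64, 1.04, -3.12 and -4.15 from left to right, and IRF4 is called only in the 2 comparisons between the lines.

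Levels can be compared between genes only per length, and the lengths behind the deposited FPKM were 1.11 (IRF4) to 3.45 (IRF1) times those of the MANE Select transcripts. On the scale of FPKM recomputed with the MANE Select length, the order in DMSO-treated parental cells was IRF8 (81.6), IRF5 (58.6), IRF3 (32.3), IRF2 (21.3), IRF1 (9.61), IRF7 (4.87), IRF9 (1.45) and IRF4 (0.539), with no neighbours overlapping between their 2 libraries. On the deposited scale IRF2 was above IRF3 and IRF7 above IRF1, so these orders rest on the length used. With DAC in parental cells IRF7 came first on both scales, at 69.9 per MANE Select length against 50.1 for IRF8, and IRF5 and IRF8 overlapped on the deposited scale. IRF9 was the lowest member in both resistant groups on both scales, and IRF4 in both parental groups. The rank and share of IRF9 are uncertain on either scale. Exons of another gene on the same strand cover 93.1% of its MANE Select bases, and reads there may have been left out.

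The makeup of the family changed accordingly. IRF7 was 2.42% and 2.22% of the summed level of the 8 genes in DMSO-treated parental cells, 26.3% and 27.1% with DAC, 5.04% and 5.25% in resistant cells with DMSO and 3.28% and 3% with DAC. IRF8 was 38.2% and 39.5% of the sum in DMSO-treated parental cells and 19.9% and 18.4% with DAC, and 40.1% to 41.9% in the 4 resistant libraries. The ratio of IRF7 to IRF3, the induced to the latent activator of interferon genes, was 0.151 in both parental DMSO libraries, 1.54 and 1.63 with DAC, 0.330 and 0.338 in resistant cells with DMSO and 0.237 and 0.203 with DAC. The ratio of IRF8 to IRF4, the myeloid to the lymphoid member, was 180 and 131 in DMSO-treated parental cells, 52.6 and 63.2 with DAC, and 21.2 to 25.2 in the 4 resistant libraries, which did not overlap with the parental ones.

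For the 3 members called in at least 1 comparison, the genes with the most similar pattern over the 8 libraries were taken from the 2950 genes called in at least 1 comparison, as a description. For IRF7 they included OAS3 (Pearson r of log2(FPKM + 1) 0.9993) and MX2 (0.9981), both interferon-stimulated genes, at 3.04, 61.5, 7.89 and 4.31 FPKM for OAS3 in the 4 groups. For IRF9 they were SMPD3 (0.9991), a sphingomyelinase, NFKBIE (0.9981), an inhibitor of NF-kB, and HLA-F (0.9973), a class I molecule, none of them from the ISGF3 list. Like IRF9, SMPD3 and HLA-F passed the filter only through parental cells with DAC, so their similarity to it is partly built in. For IRF4 they were BRD1 (0.9970), a chromatin reader, E2F3 (0.9966), a cell cycle factor, and EEF1E1 (0.9966), a tRNA synthetase cofactor. E2F3 and EEF1E1 also lie on chromosome 6, with midpoints 20.046 and 7.686 Mb from that of IRF4. The 8 points are 4 groups of 2, so a high r marks a shared order of the groups.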

How the data were processed

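RNA-seq of 8 libraries was analysed from a table of FPKM deposited by the authors, who, per the labels and the study's methods, trimmed reads with Cutadapt 1.9.1, aligned them to hg38 with HISAT2 2.1.0, sorted them with SAMtools 1.6 and counted them with HTSeq 0.13.5; the strand setting was not given in the sources used here. The deposited values were FPKM multiplied by 1000 and were divided by it; 1264 repeat rows were left out. Whole reads were recovered from the FPKM steps with GENCODE v44 exon lengths (86.9% of values within 0.02 reads of whole, the others by a search for the length) and served for depth and for voom; intervals cover the spread between libraries.

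A gene was kept if 2 libraries or more reached 1 FPKM. Its values on the log2(FPKM + 1) scale entered 1 limma model (version 3.58.1, R 4.3.3) with a mean for each of the 4 groups and trended variances (residual df 4, prior df 2.5). Calls needed p up to 0.01 and a change of 1 or more on the log2 scale. In simulated data for the parental DAC comparison, 96.5% of 200 genes changed by a log2 value of 1.5 were called, as were 14 unchanged genes. The changed genes were drawn from those with a mean log2(FPKM + 1) above 1, so this share does not cover lower genes. Replicates of a group differed by more than counting noise (chi-square per gene 3.85 to 4.07).

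The members and the gene lists were chosen with earlier results of these data known. All 8 members were described, and list genes were named when they were among the 4 largest called changes of a comparison or partners of an IRF, while TBK1, the uncalled ISGF3 targets, markers and genes near a member were named after their values were seen; the 3 most similar genes had the highest Pearson r. Alternatives changed the pseudocount, the filter, the scaling, the model and the libraries used. Promoter windows came from RefSeq (GRCh38.p14), and gene positions from GENCODE v44. One further gene of the lists is not reported here.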

Additional observations from a re-analysis of the deposited data

Results flagged for a closer look

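For 7 of the 8 genes the effect of DAC differed between resistant and parental cells in a test of the difference itself (limma, adjusted p under 0.05, resistant minus parental, on the log2 scale of FPKM + 1). Of all tested genes, 49.3% had an adjusted p under 0.05 in the same test. Both libraries of each group lay on the same side of the other treatment in parental cells for each of the 7. The differences were -0.34 for IRF1, -0.32 for IRF2, -0.55 for IRF3, 0.34 for IRF5, -4.15 for IRF7, 0.69 for IRF8 and -1.33 for IRF9. IRF7 and IRF9 also passed the fold threshold and were called lower, where 7.16% of all genes were. IRF9 was tested only because it reached 1 FPKM in parental cells with DAC, and with no filter its adjusted p was 0.0025. The adjusted p stayed under 0.05 in each alternative run for IRF3, IRF5, IRF7, IRF8 and IRF9, but in 10 of 15 for IRF1 and 7 of 16 for IRF2. IRF4 was not among them, with a difference of -0.14 (adjusted p = 0.52 with no filter and 0.43 with it), while between the lines with DMSO its log2 fold change was 1.54.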

How the results depend on the processing

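Of 657 values of single IRF genes under alternative settings, 638 kept their direction and their side of the call. The number of members called for DAC in resistant cells was 0 in each alternative run. A filter at a mean of 5 FPKM, which removes IRF1, IRF4 and IRF9 by its construction, left 1 member called for DAC in parental cells, between the lines with DMSO, between the lines with DAC, and in the difference. Between the lines with DMSO, quantile normalization and upper-quartile scaling left 1 called member, IRF4, because IRF7 came to 0.99 and 0.96. Leaving out 1 library gave 1 to 2 called members there, with IRF7 at 0.99 without parental DMSO replicate 2.

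Reversed values were all near 0 in the reported fit. For DAC in resistant cells, IRF2 was -0.00 with quantile normalization and -0.08 to 0.10 without 1 library, IRF5 was 0.03 as TPM and -0.01 to 0.00 without 1 library, IRF8 was -0.00 with upper-quartile scaling and -0.04 to 0.06 without 1 library, and IRF9 ranged from -0.11 to 0.07 without 1 library. Between the lines with DMSO, IRF1 was 0.06 as TPM, 0.00 with quantile normalization and -0.02 to 0.00 without 1 library, IRF3 was -0.02 with quantile normalization and -0.01 with upper-quartile scaling, and IRF8 was -0.01 with quantile normalization. The difference of IRF4 was 0.10 with quantile normalization. The cause was not tested.

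The replicate block changed no member call (2, 0, 2, 3 and 2 members called in the 5 comparisons), and deviations of same-numbered libraries correlated at -0.0218 to 0.0198, so the numbers do not pair the samples. Over all genes, calls for DAC in parental cells were 1387 and ranged from 573 to 2777, in resistant cells 35 (6 to 179), between the lines with DMSO 1300 (517 to 2586) and with DAC 2154 (908 to 4193), and for the difference 1583 (721 to 2797). IRF9 and, in parental cells, IRF4 rest on 45 to 311 and 75 to 144 reads per library, which limits their precision.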
